A study of Rattus norvegicus with 42 samples.

Results

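The change from early to middle culture in the ANX fraction was examined in rat metanephric mesenchyme, the embryonic tissue from which nephrons form. The members were 8 arrays of 42 in the series: 4 from ANX days 3 and 4, called middle, and 4 from ANX days 1 and 2, called early, chosen by their labelled inducer and day alone. Mesenchymes were dissected at embryonic day 13.5, freed of the ureteric bud by enzyme digestion and needles, and used at once or grown on collagen-coated transwell filters. The groups were fresh tissue, culture with no inducer for 1 or 2 days, and culture with 1 of 3 inducers (ANX, LIF, NGAL) for 1, 2, 3, 4, 5 or 7 days, each with 2 biological replicates on Affymetrix rat arrays. Every cultured group, the uninduced one included, had T3, dexamethasone, prostaglandin, selenium, transferrin, insulin, a TGF and an FGF in its DMEM/F12 medium. The rat strain, the number of explants in a sample and the content of the ANX fraction are not given in the sources used here. LIF is a cytokine that signals through STAT3, and NGAL is the iron-carrying lipocalin encoded by Lcn2.

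In the kidney, condensed mesenchyme receives inducing signals, switches on Wnt4, Pax8, Fgf8 and Lhx1, and turns into vesicles whose cells later make E-cadherin (Cdh1) and become the epithelium of the nephron. Notch ligands such as Jag1 act in the patterning of that vesicle. The explanted tissue also holds stromal, endothelial and blood cells, since it is dissected whole, and embryonic red cells carry early globins. In bulk samples such as these, fewer cells of a type and less RNA per cell cannot be told apart.

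Values are RMA intensities on a linear scale, and a log2 change is the middle mean minus the early mean of log2 intensity, so that 1 is 2-fold. A gene was tested (measured) when the mean of at least 1 group lay above 55.2, the 40th percentile of all values. This level stands here for signal over background, and 11388 genes passed it. The 8 arrays were not alike. ANX day 3 replicate 2 stood apart. Its correlation with replicate 1 over the tested genes was 0.944, against 0.988, 0.982 and 0.977 between the replicates of days 1, 2 and 4. The day 3 replicates lay at least 2-fold apart for 858 genes, 737 of them higher in replicate 2, against 67, 192 and 230 on the other days. Its collagen and proteoglycan list (39 genes) averaged 9.03 on the log2 scale against 7.68 in replicate 1, its skeletal muscle list (24 genes) 7.58 against 6.13, and its renal stroma list (26 genes) 8.60 against 7.34. For dap, a spiked-in labelling control, the log2 ratio of 3' to 5' signal was 2.35 on ANX day 2 replicate 2 and 1.78 on day 4 replicate 2, and 0.84 to 1.07 on the other 6 arrays. Results are given with and without day 3 replicate 2. Alternative fits took the dap ratio into the model or left out both arrays of high ratio. Beyond these fits, the part these differences had in the results was not tested. The tissue carried its defining markers: Wt1 read 1140 to 2240 and Eya1 1510 to 3360 on the 8 arrays, and Cdh1, an epithelial gene also of the ureteric bud, read 15.4 to 21.5, below the measured level.

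**Figure D1:**
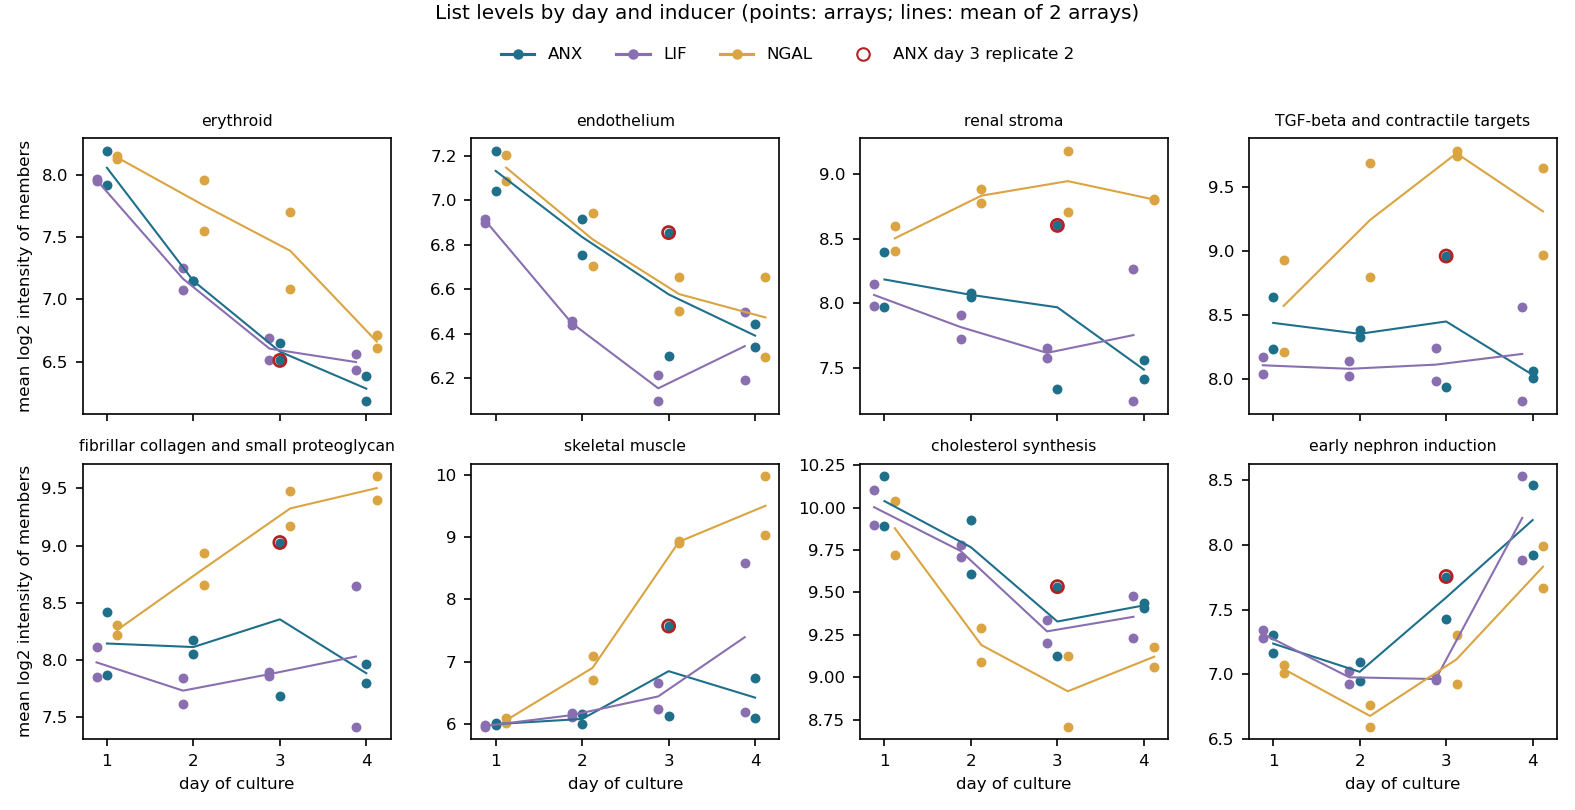
Mean log2 intensity of the measured members of 8 gene lists (y axes) by day of culture (x axes) on each array of ANX (blue), LIF (violet) and NGAL (gold), with lines through the mean of the 2 replicates. The ringed point is ANX day 3 replicate 2, the highest of these ANX arrays for collagens at 9.03 and for muscle genes at 7.58.

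Between early and middle ANX culture 155 genes were called at an adjusted p under 0.05 (1.36% of those tested), of which 63 were higher in the middle (0.553%) and 92 lower (0.808%). Of these, 28 rose and 40 fell by at least 2-fold, while the median change of all tested genes was -0.01. The 4 middle arrays did not overlap the 4 early ones for 514 genes (4.51%), lying above them for 281 (2.47%) and below them for 233 (2.05%). Without day 3 replicate 2 the count was 492 (4.32%), 124 higher (1.09%) and 368 lower (3.23%), which included 147 of the 155. These shares of all tested genes are what the list counts below are to be set against, with and without that array. Leaving out day 1 replicate 1 gave 91, day 1 replicate 2 gave 88, day 2 replicate 1 gave 68, day 3 replicate 1 gave 71 and day 4 replicate 2 gave 63 calls. The fit shares 1 estimate of spread over all 42 arrays, and with the 8 ANX arrays alone 16 genes were called, 14 of them among the 155. The genes that rose most were C1s, Srgn, Clu, Mmp3 and Ccl2, and those that fell most were the embryonic globins Hbe1, Hbz and Hbg1, followed by Fndc3c1, Vgf and the endothelial gene Sox17.

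**Figure D2:**
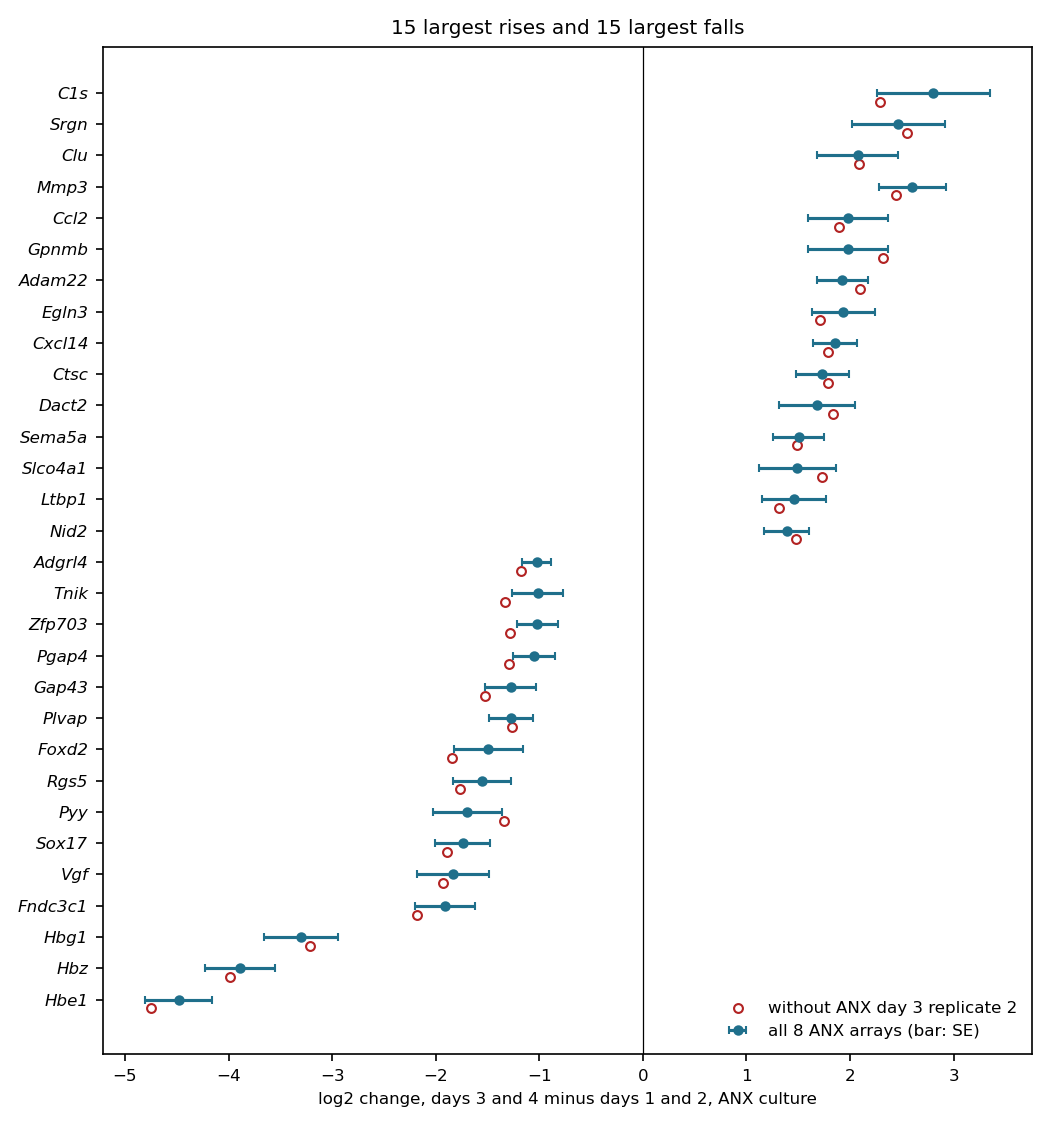
Log2 change from early to middle ANX culture (x axis) for the 15 largest rises and 15 largest falls among called genes whose arrays did not overlap (y axis, ordered by the change with group means below the measured level raised to it). Filled points carry the model's SE over all 8 ANX arrays and open points leave out day 3 replicate 2. Each open point lies on the same side of 0 as its filled one, from 2.55 for Srgn to -4.75 for Hbe1.

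The embryonic globins had the largest falls. Hbe1, an epsilon-type globin of primitive red cells, read 4640 and 5510 on day 1, 1570 and 1470 on day 2, 177 and 368 on day 3 and 86.2 and 42.3 on day 4. Every step between days was downward, the middle arrays did not reach the early ones, and the fit gave a log2 change of -4.48 (SE 0.32, adjusted p = 5.92e-09), with -4.75 without day 3 replicate 2. Fresh mesenchyme had read 12400 and 13600, and uninduced culture 9440 and 7000 on day 1 and 5010 and 5480 on day 2, above the ANX arrays of the same days. Hbz, the zeta-type embryonic globin, read 1470 and 2290 on day 1, 351 and 296 on day 2, 65.8 and 85.0 on day 3 and 34.6 and 37.3 on day 4. The day 4 arrays lay below the measured level, and the change was -3.89 (SE 0.34, adjusted p = 1.24e-07), with -3.98 without day 3 replicate 2. Hbg1, a gamma-type globin, read 608 and 1170 on day 1, 83.7 and 101 on day 2, 31.2 and 24.9 on day 3 and 33.8 and 24.3 on day 4. Most of its fall came before day 3, and the change was -3.30 (SE 0.36, adjusted p = 7.81e-06), or -2.33 with means below 55.2 raised to that level. Globin genes are close copies, so their probe sets may share signal. Of 11 measured erythroid genes 3 fell and 0 rose, and the list's median was -0.32. The count was 3 with each of the 8 arrays left out in turn. The summed intensity of the list was 3829 to 11336 on early and 2341 to 2782 on middle arrays, with no overlap. This sum includes the 3 called globins, so it is not separate from their falls. The list's median change was -0.04 in replicate 1 and -0.44 in replicate 2. The other members included Hbb, an adult-type beta globin, at a change of -0.33 (adjusted p = 0.382) and the transferrin receptor gene Tfrc at 0.19 (0.908).

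Promoters are shown for both globins with a RefSeq entry (build GRCr8), because these genes moved together; Hbg1 had no entry. Each line is the 250 bases before the start site, with matches to GATAA, the core bound by GATA factors, on either strand in capitals. Such a match was in both promoters and in 23.5% of 33469 RefSeq promoter windows of that length. Hbe1 lies at chr1:167696281-167696530 (minus strand) and Hbz at chr10:15849758-15850007 (minus strand). These matches describe letters only.
Hbe1: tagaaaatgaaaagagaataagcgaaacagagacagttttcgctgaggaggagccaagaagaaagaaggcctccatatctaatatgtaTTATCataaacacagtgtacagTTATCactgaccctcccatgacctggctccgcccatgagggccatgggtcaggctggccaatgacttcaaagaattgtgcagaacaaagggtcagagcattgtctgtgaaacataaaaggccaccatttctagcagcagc
Hbz: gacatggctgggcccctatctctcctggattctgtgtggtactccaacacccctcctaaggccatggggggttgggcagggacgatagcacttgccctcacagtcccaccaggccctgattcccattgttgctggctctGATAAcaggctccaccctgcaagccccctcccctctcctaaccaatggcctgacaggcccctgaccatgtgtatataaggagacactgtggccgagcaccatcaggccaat

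Of 25 measured endothelial markers, 6 fell (Adgrl4, Sox17, Plvap, Sox7, Ramp2 and Lmo2) and 0 rose, 4 had all middle arrays below all early ones, and the median change was -0.34. Without day 3 replicate 2 the falls were 9, Pecam1, Kdr and Emcn joining, with a median of -0.50. Over all tested genes 0.808% fell, and 3.23% without that array, while 2.05% had all middle arrays below all early ones. With other arrays left out, the count of falls was 3 without day 1 replicate 1 or day 1 replicate 2 or day 2 replicate 1 or day 3 replicate 1 or day 4 replicate 2. The summed intensity of the list was 3364 to 5433 on early and 2477 to 3819 on middle arrays, so the ranges overlapped. Sox17, a transcription factor of endothelium, read 239 and 345 on day 1, 229 and 137 on day 2, 42.5 and 65.5 on day 3 and 90.0 and 82.9 on day 4. Every middle array lay below every early one, with a log2 change of -1.74 (SE 0.27, adjusted p = 0.000697), and the early values were above those of fresh tissue (94.9 and 101). Plvap, a protein of the diaphragms of fenestrated capillaries, read 377 and 544 on day 1, 409 and 253 on day 2, 177 and 171 on day 3 and 172 and 120 on day 4. Its change was -1.27 (SE 0.22, adjusted p = 0.00225), with no overlap of arrays. Adgrl4, an adhesion receptor of endothelial cells, read 108 and 152 on day 1, 92.2 and 100 on day 2, 44.5 and 67.9 on day 3 and 57.1 and 51.1 on day 4. The change was -1.03 (SE 0.14, adjusted p = 0.000189). Sox7, a relative of Sox17, read 244 and 273 on day 1, 158 and 151 on day 2, 71.3 and 172 on day 3 and 53.7 and 58.8 on day 4. Day 3 replicate 2 overlapped the day 2 arrays, and the change of -1.34 (SE 0.30, adjusted p = 0.0175) was kept only without day 3 replicate 2 (adjusted p 0.0515 to 0.167 without each of the others). Among receptor genes that were not called with all arrays, the change was 0.47 for Flt1 (adjusted p = 0.580) and -0.78 for Kdr (0.223). Without day 3 replicate 2 it was 0.03 for Flt1 and -1.26 for Kdr. Rgs5, a regulator of G-protein signalling found in pericytes, read 158 and 281 on day 1, 185 and 202 on day 2, 50.1 and 88.9 on day 3 and 69.3 and 72.1 on day 4. The fit gave a log2 change of -1.55 (SE 0.28, adjusted p = 0.00352).

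Of 26 measured genes that mark renal stroma 3 fell (Twist1, Tbx18 and Rarb) and 0 rose. The list's median was -0.33, and -0.79 with 5 falls (Tbx18, Rarb, Fbln5, Twist1 and Sfrp1) without day 3 replicate 2. The share of all tested genes that fell was 0.808%, and 3.23% without that array. With other arrays left out, the count of falls was 1 without day 2 replicate 1 or day 3 replicate 1 or day 4 replicate 1 or day 4 replicate 2. The summed intensity was 19622 to 23946 on early arrays and 13610 to 30215 on middle arrays, the highest being day 3 replicate 2. Twist1, a mesenchymal transcription factor, read 262 and 262 on day 1, 122 and 121 on day 2, 43.2 and 138 on day 3 and 53.6 and 28.8 on day 4. Day 3 replicate 2 lay above the day 2 arrays, the other middle arrays lay below, and the change was -1.70 (SE 0.30, adjusted p = 0.00292), or -2.12 without that array. Rarb, a retinoic acid receptor, read 111 and 141 on day 1, 84.9 and 83.3 on day 2, 37.2 and 76.0 on day 3 and 43.6 and 41.6 on day 4. Its middle arrays lay below all early ones, by a change of -1.11 (SE 0.25, adjusted p = 0.0200), a call kept only without day 1 replicate 1 or day 3 replicate 2 (adjusted p 0.0583 to 0.183 without each of the others). Tbx18, a T-box factor of ureteral and stromal mesenchyme, read 112 and 94.7 on day 1, 53.5 and 49.5 on day 2, 34.2 and 71.9 on day 3 and 25.6 and 25.7 on day 4. The change was -1.03 (SE 0.23, adjusted p = 0.0175), but -0.45 with means below the measured level raised to it. That call was kept only without day 1 replicate 2, day 2 replicate 2 or day 3 replicate 2 (adjusted p 0.0572 to 0.169 without each of the others). The change was -0.29 for Pdgfra (adjusted p = 0.924), -0.19 for Aldh1a2 (0.805) and -0.05 for Tcf21 (0.980), all well above the measured level and not called. Without day 3 replicate 2 it was -0.85 for Pdgfra, -0.36 for Aldh1a2 and 0.13 for Tcf21. Foxd2, a forkhead factor, read 298 and 354 on day 1, 209 and 242 on day 2, 61.2 and 163 on day 3 and 92.1 and 92.7 on day 4. Its change of -1.49 (SE 0.33, adjusted p = 0.0185) was kept only without day 3 replicate 2 (adjusted p 0.0513 to 0.171 without each of the others). Fresh tissue had read 1350 and 1440. Zfp703, a transcriptional corepressor, read 571 and 665 on day 1, 404 and 383 on day 2, 183 and 382 on day 3 and 233 and 214 on day 4. The change of -1.02 (SE 0.20, adjusted p = 0.00654) was lost without day 3 replicate 1 (adjusted p = 0.0713), and fresh tissue had read 1660 and 1670.

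**Figure D3:**
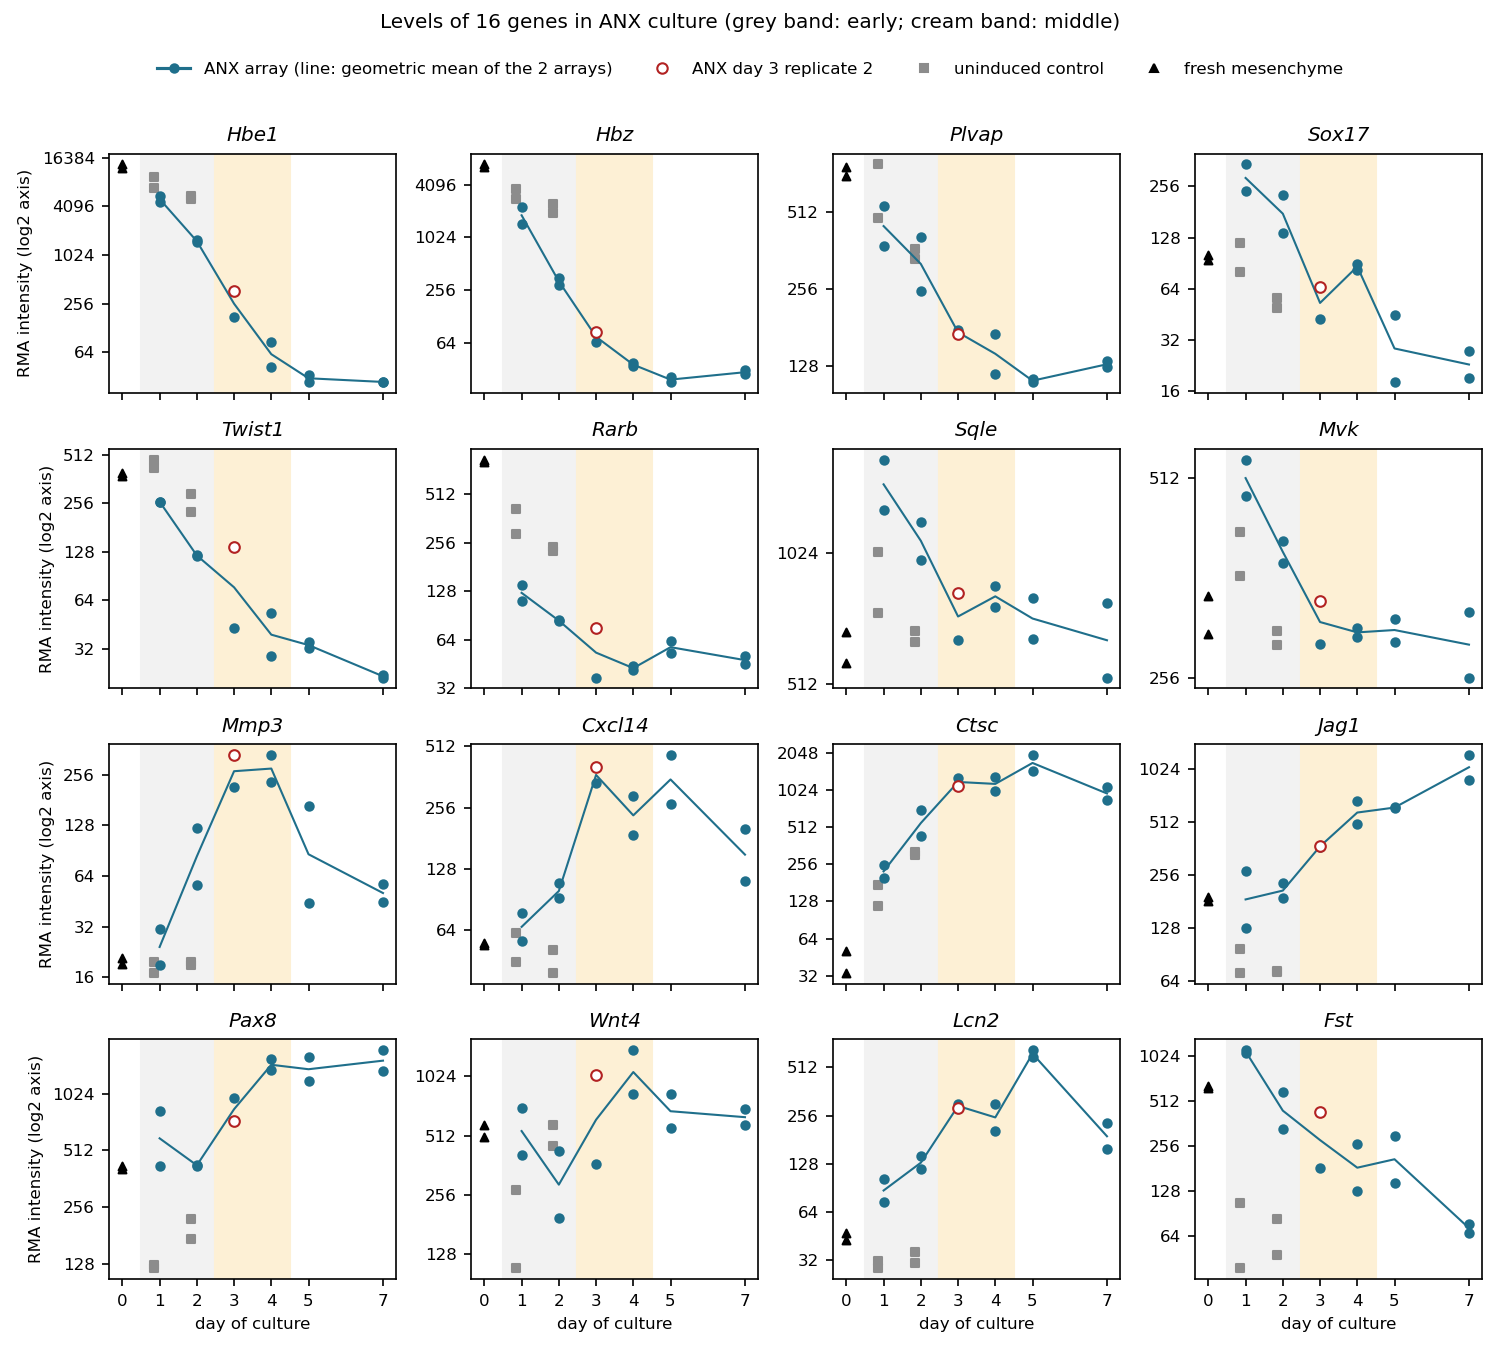
RMA intensity (y axes, log2 scale) of 16 genes by day of culture (x axes). Circles are ANX arrays with a line through the geometric mean of the 2 replicates, the open red circle is day 3 replicate 2, squares are uninduced cultures and triangles fresh mesenchyme. Hbe1 falls from 12400 and 13600 in fresh tissue to 42.3 and 86.2 on ANX day 4, while Jag1 rises from 128 and 271 on day 1 to 501 and 671 on day 4.

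Other cell types were at most thinly represented among the calls. In the macrophage and leukocyte list 1 of 17 fell, the mannose receptor gene Mrc1, and 0 rose (median -0.02, summed intensity 1992 to 2416 early and 1628 to 2244 middle). Mrc1 read 78.2 and 231 on day 1, 466 and 167 on day 2, 51.9 and 52.6 on day 3 and 96.4 and 71.2 on day 4, a scattered change of -1.56 (SE 0.40, adjusted p = 0.0485) that was kept only without day 1 replicate 1 or day 2 replicate 2 (adjusted p 0.0501 to 0.317 without each of the others). In the neuron and Schwann cell list 1 of 17 fell, Gap43, a growth cone protein, and 0 rose (median -0.02, summed intensity 2581 to 3030 early and 2398 to 2682 middle). Gap43 read 206 and 118 on day 1, 105 and 75.2 on day 2, 35.0 and 70.4 on day 3 and 51.8 and 43.6 on day 4. The fit gave a log2 change of -1.28 (SE 0.25, adjusted p = 0.00654), lost without day 1 replicate 1, day 2 replicate 1 or day 3 replicate 1 (adjusted p 0.0564 to 0.0687). Nefm, a neurofilament gene, fell too without day 3 replicate 2. Of 16 ureteric bud and collecting duct genes Lcn2 rose and Wnt11 fell (median 0.03, summed intensity 2348 to 2543 early and 2349 to 2582 middle), and Gata3 fell too without day 3 replicate 2. Ret, the receptor that defines ureteric bud tips, had a change of 0.11 (adjusted p = 0.867) near the measured level. None of the 24 skeletal muscle genes was called, although their median was 0.35 and their summed intensity was 3148 to 3894 on early and 3550 to 8030 on middle arrays, the highest on day 3 replicate 2. Without that array the muscle median was 0.18. Of 11 cartilage genes 0 were called (median -0.01, summed intensity 3509 to 4192 early and 2160 to 4901 middle).

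Genes of nephron induction had the highest median of the 29 lists, at 0.79. Of 16 measured, 2 rose (Jag1 and Kdm2b), 0 fell, and 5 had all middle arrays above all early ones. Over all tested genes 0.553% rose, and 2.47% had all middle arrays above all early ones. Without day 3 replicate 2 the median was 0.68, 4 rose (Pax8, Fgf8, Jag1 and Kdm2b) and Lef1 fell. With other arrays left out, the count of rises was 1 without day 1 replicate 2 or day 2 replicate 2 or day 3 replicate 1 or day 4 replicate 2. Jag1, a Notch ligand, read 271 and 128 on day 1, 230 and 190 on day 2, 371 and 374 on day 3 and 501 and 671 on day 4. The day 3 arrays were close to each other and day 4 was higher still, without overlap with the early arrays. The fit gave a log2 change of 1.24 (SE 0.26, adjusted p = 0.0125), a call lost without day 1 replicate 2, day 2 replicate 2, day 3 replicate 1 or day 4 replicate 2 (adjusted p 0.0558 to 0.122). Uninduced culture had read 97.7 and 71.2 on day 1 and 72.9 and 71.7 on day 2. Kdm2b, a histone demethylase and not itself an inducing signal, read 1700 and 1300 on day 1, 1200 and 1320 on day 2, 2080 and 1880 on day 3 and 2630 and 2660 on day 4. The change was 0.74 (SE 0.12, adjusted p = 0.00105), and its call was kept with each array left out.

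Pax8, a paired-box factor switched on in the pretubular aggregate, read 830 and 423 on day 1, 429 and 423 on day 2, 976 and 735 on day 3 and 1360 and 1560 on day 4. Both day 4 arrays were above all early ones, but day 3 replicate 2 lay below day 1 replicate 1, and the change was 1.14 (SE 0.31, adjusted p = 0.0698). It passed the threshold without day 3 replicate 2, at 1.25 (adjusted p = 0.0434). Wnt4, the signal that drives the turn to epithelium, read 712 and 411 on day 1, 195 and 429 on day 2, 369 and 1040 on day 3 and 837 and 1390 on day 4, with wide spread on each day and a change of 1.04 (SE 0.39, adjusted p = 0.268). Lhx1, a factor of the renal vesicle, read 55.8 and 44.4 on day 1, 52.2 and 42.2 on day 2, 74.7 and 60.3 on day 3 and 95.9 and 58.4 on day 4. Although all middle arrays were above all early ones, its change of 0.55 (SE 0.28) had an adjusted p of 0.511. Fgf8, an inducing growth factor, had a change of 1.44 (SE 0.39, adjusted p = 0.0644), and Ccnd1, a cyclin, of 1.84 (SE 0.57, adjusted p = 0.136).

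The factors of the uninduced progenitor state gave no call. Of 21 measured nephron progenitor genes 0 rose and 0 fell, with a median of 0.18, or 0.38 without day 3 replicate 2. Eya1 read 2160 and 2130 on day 1, 2410 and 2420 on day 2, 3200 and 1510 on day 3 and 3180 and 3360 on day 4, with day 3 replicate 2 lowest and a change of 0.24 (adjusted p = 0.923). Wt1 read 2000 and 1990 on day 1, 2240 and 1360 on day 2, 1840 and 1140 on day 3 and 2050 and 1840 on day 4. The change was -0.16 (adjusted p = 0.934). The change was 0.93 for Pax2 (adjusted p = 0.201) and 0.32 for Sall1 (0.852). Epithelial genes were also without a call: 0 of 30 junction and keratin genes rose or fell, and 2 (Spint1 and Lad1, a protease inhibitor and an anchoring filament protein) rose without day 3 replicate 2. Epcam, an epithelial adhesion molecule, read 41.8 and 39.6 on day 1, 49.2 and 61.2 on day 2, 71.3 and 44.3 on day 3 and 105 and 155 on day 4. The change was 0.84 (SE 0.36, adjusted p = 0.363). Cdh1 read 16.5 and 15.7 on day 1, 16.4 and 16.1 on day 2, 18.5 and 15.4 on day 3 and 19.3 and 21.5 on day 4, below the measured level on all 8 arrays. Of 20 proximal tubule genes and 13 of the loop of Henle and distal tubule 0 were called, with medians of 0.04 and 0.02, and 1 of each list fell without day 3 replicate 2 (Dab2 and Gata3). In the podocyte list of 18 genes 1 rose, Dach1, a transcriptional cofactor, which read 1160 and 1080 on day 1, 1060 and 1110 on day 2, 1850 and 1430 on day 3 and 1610 and 1960 on day 4. Its change of 0.63 (SE 0.16, adjusted p = 0.0424) was kept only without day 3 replicate 2 (adjusted p 0.0565 to 0.236 without each of the others).

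Among Notch genes, Jag1 and the target gene Hey1 were the 2 of 19 that rose, and 0 fell (median 0.10). With other arrays left out, the count of rises was 0 without day 1 replicate 2 or day 2 replicate 2 or day 3 replicate 1 or day 4 replicate 2 and 1 without day 1 replicate 1 or day 2 replicate 1. Hey1, a transcriptional repressor, read 202 and 198 on day 1, 133 and 123 on day 2, 305 and 344 on day 3 and 339 and 647 on day 4. Day 4 replicate 2 was far above the other middle arrays, all of which exceeded the early ones, and the change of 1.29 (SE 0.31, adjusted p = 0.0314) was kept only without day 3 replicate 2 or day 4 replicate 1 (adjusted p 0.0853 to 0.218 without each of the others). The change was 0.48 for the receptor gene Notch1 (adjusted p = 0.163), 0.10 for the ligand gene Dll1 (0.864) and 0.22 for the target Hes1 (0.695).

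Of 29 measured Wnt pathway genes 1 rose (Apcdd1) and 2 fell (Dkk2 and Wnt11), with a median of 0.15. Leaving out day 3 replicate 2 gave 2 rises, Porcn joining, and 4 falls, Sfrp1 and Lef1 joining. The falls were 2 without day 2 replicate 2 and 0 with any of the other 6 arrays left out, and the rises were 2 without day 3 replicate 1. Apcdd1, a membrane inhibitor of Wnt signalling, read 124 and 105 on day 1, 116 and 160 on day 2, 220 and 202 on day 3 and 237 and 267 on day 4. Its rise of 0.89 (SE 0.16, adjusted p = 0.00341) kept its call with each array left out. Dkk2, a secreted Wnt modulator, read 360 and 537 on day 1, 436 and 149 on day 2, 36.5 and 448 on day 3 and 63.3 and 42.3 on day 4. Day 3 replicate 2 had the level of the early arrays and the other 3 middle arrays were far lower, and the change was -2.04 (SE 0.51, adjusted p = 0.0425). It was -2.95 without that array (adjusted p = 0.000129), and the call was kept only without day 2 replicate 2 or day 3 replicate 2 (adjusted p 0.0722 to 0.314 without each of the others). Wnt11, a ligand of ureteric bud tips, read 79.3 and 96.6 on day 1, 98.4 and 56.5 on day 2, 47.6 and 53.9 on day 3 and 56.5 and 47.8 on day 4. The change was -0.65 (SE 0.16, adjusted p = 0.0400), at levels near the measured one, and the call was kept only without day 2 replicate 2 or day 3 replicate 2 (adjusted p 0.0601 to 0.307 without each of the others). Axin2, a feedback target of the pathway, had a change of 0.70 (adjusted p = 0.245). Dact2, which binds Dishevelled, read 59.2 and 51.4 on day 1, 36.4 and 95.6 on day 2, 191 and 123 on day 3 and 188 and 252 on day 4. Its change of 1.68 (SE 0.37, adjusted p = 0.0165) was kept only without day 2 replicate 2, day 3 replicate 2 or day 4 replicate 1 (adjusted p 0.0502 to 0.155 without each of the others). Tnik, a kinase that acts with the Wnt factor TCF, read 191 and 214 on day 1, 293 and 193 on day 2, 63.8 and 152 on day 3 and 109 and 131 on day 4. Its change of -1.01 (SE 0.25, adjusted p = 0.0346) was kept only without day 2 replicate 2 or day 3 replicate 2 (adjusted p 0.0765 to 0.277 without each of the others). Of 21 FGF and MAPK feedback genes 0 were called (median 0.06), and 1 rose without day 2 replicate 2, day 3 replicate 1 or day 3 replicate 2, in the last case Fgf8.

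Among matrix proteases and inhibitors the rises were confined to a few genes. Of 27 proteases and inhibitors 3 rose (Mmp12, Mmp3 and Ctsc) and 0 fell, while the list's median was 0.01. Without day 3 replicate 2 the 3 rises stayed and 5 genes fell (Mmp16, Reck, Plaur, Serpine2 and Ctsl). Mmp3, a stromelysin, read 30.9 and 19.0 on day 1, 56.3 and 124 on day 2, 216 and 333 on day 3 and 335 and 231 on day 4. It climbed from below the measured level to at least 216 on all middle arrays, a change of 2.60 (SE 0.32, adjusted p = 5.27e-05), or 2.01 with low means raised to the measured level. In uninduced culture Mmp3 read 17.0 to 19.6 on days 1 and 2. Mmp12, a macrophage elastase, read 46.4 and 44.1 on day 1, 46.9 and 67.6 on day 2, 185 and 141 on day 3 and 120 and 128 on day 4. Without overlap of arrays, the fit gave a log2 change of 1.48 (SE 0.18, adjusted p = 5.27e-05). Ctsc, the lysosomal dipeptidyl peptidase cathepsin C, read 197 and 254 on day 1, 433 and 705 on day 2, 1280 and 1100 on day 3 and 1010 and 1310 on day 4. The change was 1.73 (SE 0.25, adjusted p = 0.000435). In the macrophage and leukocyte list no gene other than Mrc1 was called.

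Mmp3 and Mmp12 both lie on chromosome 8, at chr8:12925031-12925280 (plus strand) and chr8:12866402-12866651 (plus strand) for the windows before their start sites. Both windows hold 1 match to TGAGTCA, the AP-1 element, searched on both strands and set in capitals, as do 4.05% of 33469 promoter windows; the Ctsc window holds 0. The 28 AP-1 and immediate early genes themselves gave 0 calls, with a median of -0.05, or -0.22 without day 3 replicate 2.
Mmp3: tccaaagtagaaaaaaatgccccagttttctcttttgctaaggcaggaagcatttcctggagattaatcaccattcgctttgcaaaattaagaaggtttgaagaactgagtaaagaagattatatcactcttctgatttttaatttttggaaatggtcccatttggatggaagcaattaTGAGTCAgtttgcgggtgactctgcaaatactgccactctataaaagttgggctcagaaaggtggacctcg
Mmp12: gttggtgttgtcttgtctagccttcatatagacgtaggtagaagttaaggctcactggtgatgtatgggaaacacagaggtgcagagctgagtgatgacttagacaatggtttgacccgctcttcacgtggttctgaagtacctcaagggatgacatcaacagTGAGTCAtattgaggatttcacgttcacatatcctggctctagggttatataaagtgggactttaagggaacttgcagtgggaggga

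The first 3 genes in the order of rises were C1s, Srgn and Clu, and Gpnmb was the sixth. C1s, a protease of the complement cascade, read 58.7 and 110 on day 1, 255 and 503 on day 2, 704 and 2950 on day 3 and 675 and 1410 on day 4. Day 3 replicate 2 was the highest array, all middle arrays were above all early ones, and the change was 2.80 (SE 0.55, adjusted p = 0.00654), or 2.29 without that array. The call was lost without day 2 replicate 1 or day 4 replicate 2 (adjusted p 0.0539 to 0.0595). Srgn, the proteoglycan of secretory granules, read 262 and 216 on day 1, 252 and 190 on day 2, 1610 and 1290 on day 3 and 1540 and 799 on day 4. The early arrays were flat and the middle arrays several-fold higher, a log2 change of 2.47 (SE 0.45, adjusted p = 0.00352). Clu, a secreted chaperone, read 105 and 147 on day 1, 130 and 212 on day 2, 547 and 534 on day 3 and 524 and 871 on day 4. The fit gave a log2 change of 2.07 (SE 0.39, adjusted p = 0.00516). Over 19 other settings the Clu change ran from 1.11 to 2.26, and its call was lost without both arrays of high dap ratio. Its uninduced arrays read 520 and 635 on day 2, close to the ANX arrays of days 3 and 4. Gpnmb, a glycoprotein of lysosomes and melanosomes, read 592 and 457 on day 1, 571 and 704 on day 2, 3630 and 1400 on day 3 and 2400 and 2150 on day 4. The change of 1.98 (SE 0.39, adjusted p = 0.00654) was lost without day 3 replicate 1 (adjusted p = 0.0682).

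Of 41 cytokine, chemokine and acute phase genes 3 rose (Cxcl14, Ccl2 and Lcn2) and 1 fell (Cxcl10), with a median of 0.18. Without day 3 replicate 2 the counts were 4 and 4, Cxcl2 joining the rises and Cxcl12, Tnfaip6 and Nfkbiz the falls. The rises were 1 without day 1 replicate 1. Cxcl14, a chemokine of epithelia and stroma, read 78.3 and 56.7 on day 1, 109 and 91.9 on day 2, 339 and 407 on day 3 and 292 and 189 on day 4. Fresh tissue read 54.2 and 55.7, below every early array, and the middle arrays read at least 189. The log2 change was 1.86 (SE 0.21, adjusted p = 1.81e-05), although the mean of all its probe sets gave 0.97. Ccl2, a monocyte chemokine, read 97.5 and 199 on day 1, 293 and 640 on day 2, 956 and 1220 on day 3 and 829 and 915 on day 4. Its change of 1.98 (SE 0.39, adjusted p = 0.00654) was lost without day 1 replicate 1 or day 2 replicate 1 (adjusted p 0.0576 to 0.0721). Lcn2, which encodes NGAL, read 73.5 and 103 on day 1, 143 and 118 on day 2, 301 and 287 on day 3 and 204 and 304 on day 4. The uninduced arrays read only 28.4 to 36.1, so ANX culture was above them already on day 1, and the later rise was 1.35 (SE 0.28, adjusted p = 0.0122), a call lost without day 1 replicate 1, day 2 replicate 2, day 3 replicate 1 or day 4 replicate 2 (adjusted p 0.0583 to 0.0965). Cxcl10, an interferon-induced chemokine, read 712 and 1300 on day 1, 477 and 475 on day 2, 102 and 622 on day 3 and 140 and 100 on day 4. Day 3 replicate 2 stayed at the early level while the other middle arrays read 140 or less, and the change was -1.97 (SE 0.41, adjusted p = 0.0117), or -2.62 without it. The call was lost without day 1 replicate 2, day 2 replicate 1, day 3 replicate 1 or day 4 replicate 2 (adjusted p 0.0539 to 0.109). Cxcl10 was also the 1 of 18 interferon response genes that changed (median 0.06), and Gbp2 fell with it when day 3 replicate 2 was left out.

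In the basement membrane list 1 of 27 rose, Nid2, and 0 fell (median 0.09). Nid2, the linker protein nidogen 2, read 296 and 241 on day 1, 238 and 325 on day 2, 721 and 556 on day 3 and 680 and 955 on day 4. Without overlap of arrays, the fit gave a log2 change of 1.39 (SE 0.22, adjusted p = 0.00100). Ltbp1, which holds latent TGF-beta in the matrix, read 142 and 214 on day 1, 144 and 241 on day 2, 375 and 564 on day 3 and 371 and 769 on day 4. The change of 1.46 (SE 0.31, adjusted p = 0.0122) was lost without day 1 replicate 1, day 2 replicate 1 or day 4 replicate 2 (adjusted p 0.0730 to 0.118). Fibrillar collagens and small proteoglycans gave 0 calls of 39, with a median of 0.05, or -0.15 without day 3 replicate 2. That array was the highest of these ANX arrays for this list, so the lower median follows from its removal. TGF-beta and contractile genes gave 0 of 22, with a median of -0.11, or -0.36 without that array. Their summed intensity was 17267 to 22460 on early and 13154 to 24622 on middle arrays.

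Genes of cholesterol synthesis gave 6 falls, as many as the endothelial list and more than any other. Of 21 measured genes the 6 were Mvk, Insig1, Sqle, Mvd, Nsdhl and Fdft1, and 0 rose. All middle arrays lay below all early ones for 12 genes, against 2.05% of all tested genes, and the median change was -0.56. All 21 changes were below 0, from -0.98 to -0.04. There were 10 falls without day 3 replicate 2, Idi1, Lss, Stard4 and Acat2 joining. Falls over all tested genes also grew when that array was left out, from 0.808% to 3.23%. With other arrays left out, the count of falls was 1 without day 1 replicate 2 or day 2 replicate 2 or day 3 replicate 1 or day 4 replicate 2. Mvk, mevalonate kinase, read 480 and 545 on day 1, 381 and 411 on day 2, 288 and 334 on day 3 and 304 and 295 on day 4. Every early array lay above every middle one, and the change was -0.56 (SE 0.10, adjusted p = 0.00329), kept with each array left out. Insig1, the sterol sensor that holds the SREBP complex in the endoplasmic reticulum, read 1630 and 1950 on day 1, 986 and 1360 on day 2, 624 and 968 on day 3 and 980 and 757 on day 4. Its change of -0.81 (SE 0.18, adjusted p = 0.0195) was lost without day 1 replicate 2, day 2 replicate 2, day 3 replicate 1 or day 4 replicate 2 (adjusted p 0.111 to 0.167). Sqle, squalene epoxidase, read 1290 and 1680 on day 1, 985 and 1210 on day 2, 644 and 830 on day 3 and 862 and 769 on day 4. Its change of -0.72 (SE 0.16, adjusted p = 0.0209) was lost without day 1 replicate 2, day 2 replicate 2, day 3 replicate 1 or day 4 replicate 2 (adjusted p 0.117 to 0.151). Mvd, which makes isopentenyl diphosphate, read 435 and 566 on day 1, 307 and 395 on day 2, 252 and 305 on day 3 and 302 and 245 on day 4. Its change of -0.60 (SE 0.14, adjusted p = 0.0272) was lost without day 1 replicate 2, day 2 replicate 2, day 3 replicate 1 or day 4 replicate 2 (adjusted p 0.166 to 0.183). Day 1 had been above fresh tissue for all 4, with fresh values of 675 and 572 for Sqle and 582 and 526 for Insig1. The regulator genes Srebf1 and Srebf2 had changes of -0.21 (adjusted p = 0.579) and -0.04 (0.975).

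Promoters with CCAAT, the element bound by NF-Y, are shown for Mvk and Nsdhl, since the members of this pathway moved together. Of the 6 genes that fell 4 had an entry (Mvk, Insig1, Mvd and Nsdhl; not Sqle or Fdft1), and all 4 hold CCAAT on either strand, 5 times each in Mvk and Nsdhl and 1 time each in Insig1 and Mvd. It is a frequent element, in 34% of the 33469 windows. The Mvk window is chr12:47819504-47819753 (minus strand) and that of Nsdhl chrX:155817110-155817359 (plus strand), with matches in capitals.
Mvk: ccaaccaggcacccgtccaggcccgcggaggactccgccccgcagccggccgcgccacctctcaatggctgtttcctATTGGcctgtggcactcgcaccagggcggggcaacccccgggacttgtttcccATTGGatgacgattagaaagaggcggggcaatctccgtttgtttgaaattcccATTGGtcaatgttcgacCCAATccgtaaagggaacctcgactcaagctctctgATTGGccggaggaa
Nsdhl: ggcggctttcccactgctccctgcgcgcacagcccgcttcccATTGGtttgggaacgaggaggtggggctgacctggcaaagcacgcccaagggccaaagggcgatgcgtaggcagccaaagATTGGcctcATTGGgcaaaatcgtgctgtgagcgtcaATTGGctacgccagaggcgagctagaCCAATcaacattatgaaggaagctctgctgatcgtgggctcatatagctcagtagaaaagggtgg

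Of 35 glycolysis and hypoxia genes 2 rose (Egln3 and Slc2a1) and 0 fell, with a median of 0.17. There were 3 rises without day 3 replicate 2, Pdk1 joining, and 2 falls, Hk1 and Slc2a3. With any of the other 7 arrays left out 1 gene rose and 0 fell. Egln3, a prolyl hydroxylase that targets HIF, read 42.9 and 62.4 on day 1, 55.6 and 84.6 on day 2, 157 and 297 on day 3 and 222 and 261 on day 4. All middle arrays were above all early ones, with a log2 change of 1.94 (SE 0.30, adjusted p = 0.000947), but uninduced culture had read 202 and 190 on day 2. Slc2a1, the glucose transporter GLUT1, read 576 and 675 on day 1, 562 and 632 on day 2, 870 and 841 on day 3 and 893 and 1010 on day 4. The change of 0.57 (SE 0.14, adjusted p = 0.0492) was kept only without day 3 replicate 2 (adjusted p 0.0798 to 0.217 without each of the others). The change was 0.74 for Vegfa (adjusted p = 0.107) and 0.30 for Ldha (0.285). Slco4a1, an organic anion transporter, read 95.6 and 146 on day 1, 123 and 124 on day 2, 455 and 233 on day 3 and 415 and 305 on day 4. Its change of 1.49 (SE 0.37, adjusted p = 0.0400) was kept only without day 3 replicate 2 (adjusted p 0.0673 to 0.236 without each of the others). Proliferation genes gave no call: 0 of 44 mitosis genes and 0 of 45 DNA replication genes, with medians of -0.17 and -0.15, and 0 of 15 p53 targets with a median of 0.13. Gins4 of the replication list and Plk2 of the p53 list fell without day 3 replicate 2.

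**Figure D4:**
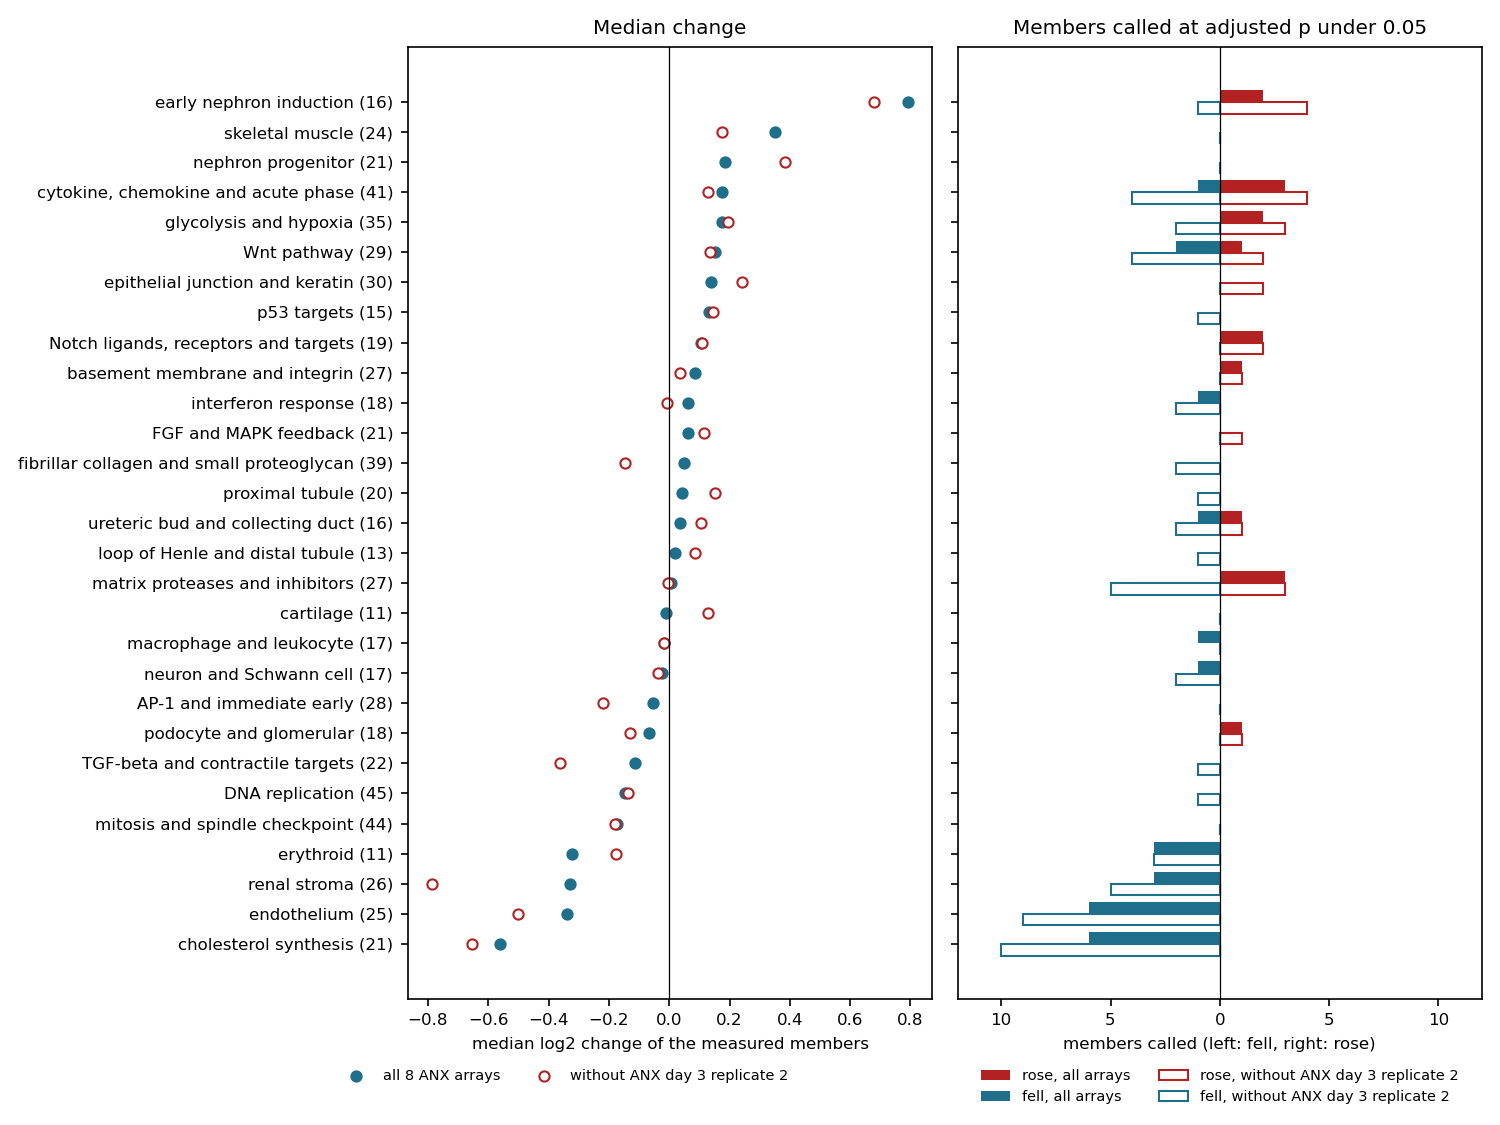
Left, median log2 change from early to middle ANX culture (x axis) of the measured members of 29 gene lists (y axis, number measured in brackets). Right, members called at an adjusted p under 0.05, falls to the left and rises to the right (x axis); filled marks use all 8 ANX arrays and open marks leave out day 3 replicate 2. Cholesterol synthesis has the lowest median at -0.56 with 6 falls, or 10 without that array, and early nephron induction the highest at 0.79.

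The remaining genes with large changes belonged to varied families. Adam22, a catalytically inactive ADAM protein of synapses, read 52.3 and 67.8 on day 1, 62.4 and 154 on day 2, 322 and 202 on day 3 and 276 and 396 on day 4. The fit gave a log2 change of 1.93 (SE 0.24, adjusted p = 6.27e-05), or 0.83 as the mean of its probe sets. Sema5a, a guidance semaphorin, read 67.8 and 91.7 on day 1, 67.6 and 77.9 on day 2, 185 and 194 on day 3 and 177 and 333 on day 4. The fit gave a log2 change of 1.5 (SE 0.24, adjusted p = 0.00139), or 0.73 as the mean of its probe sets. Among the falls, Fndc3c1, a fibronectin type III protein, read 325 and 520 on day 1, 184 and 186 on day 2, 51.8 and 109 on day 3 and 77.2 and 65.7 on day 4, a decline that began from 1340 and 1460 in fresh tissue and came to -1.91 (SE 0.29, adjusted p = 0.000611). Vgf, a neuropeptide precursor, read 1490 and 1490 on day 1, 538 and 625 on day 2, 301 and 394 on day 3 and 258 and 152 on day 4. Fresh tissue read 132 and 100, so the early level was a peak, and the change of -1.83 (SE 0.35, adjusted p = 0.00546) was lost without day 4 replicate 2 (adjusted p = 0.0553). Pyy, the gut hormone peptide YY, read 274 and 357 on day 1, 285 and 299 on day 2, 145 and 53.9 on day 3 and 137 and 71.5 on day 4. The change of -1.69 (SE 0.33, adjusted p = 0.00661) was lost without day 4 replicate 2 (adjusted p = 0.0732). Pgap4, an enzyme that modifies GPI anchors, read 139 and 190 on day 1, 124 and 129 on day 2, 51.7 and 101 on day 3 and 54.5 and 81.2 on day 4. The change of -1.05 (SE 0.20, adjusted p = 0.00546) was lost without day 3 replicate 1 (adjusted p = 0.0611). Fst, the activin antagonist follistatin, read 1070 and 1110 on day 1, 585 and 330 on day 2, 181 and 434 on day 3 and 263 and 128 on day 4. It stood far above uninduced culture (39.2 to 107) on day 1, and its change of -1.61 (SE 0.38, adjusted p = 0.0282) was kept only without day 2 replicate 2, day 3 replicate 2 or day 4 replicate 1 (adjusted p 0.0788 to 0.209 without each of the others).

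Day by day, each step set 2 arrays against 2. From day 1 to day 2, 3 genes were called (0.0263% of those tested; 1 higher, 0.00878%, and 2 lower, 0.0176%; 451 at an unadjusted p under 0.05). Cdkn2a, the locus of the cell cycle inhibitors p16 and ARF, went from 19.9 and 21.3 to 60.6 and 55.8, a rise of 1.5 (SE 0.27, adjusted p = 0.0350). Its day 1 arrays lay below the measured level and day 2 just above it, and with the day 1 mean raised to that level the rise was 0.075. Cdkn2a passed the filter through ANX days 2 and 3 alone, so it was tested only because of the level it rose to. Esm1, a secreted endothelial proteoglycan, went from 45.7 and 87.9 to 21.6 and 24, a fall by 1.48 (SE 0.24, adjusted p = 0.0122). Of these arrays, 1 of day 1 lay above the measured level, and with the day 2 mean raised to it the change was -0.20. Esm1 passed the filter through ANX day 1 alone, so it was tested only because of the level it fell from. Hbg1 fell by 3.20 (SE 0.51, adjusted p = 0.0122). No call of this step was left without day 1 replicate 2, day 2 replicate 1 or day 2 replicate 2. From day 2 to day 3, 4 genes were called (0.0351%; 2 higher and 2 lower, 0.0176% each; 496 at an unadjusted p under 0.05). Cxcl14 rose by 1.89 (SE 0.30, adjusted p = 0.0190), and Mmp12 rose by 1.52 (SE 0.26, adjusted p = 0.0264). Hbe1 fell by 2.57 (SE 0.46, adjusted p = 0.0323), and Zfp185, a cytoskeletal LIM protein, fell by 2.06 (SE 0.38, adjusted p = 0.0351) from 138 and 77.7 to 32.9 and 18.7, or by 0.91 with the day 3 mean raised to the measured level. The number was 26 without day 3 replicate 2 and 0 without day 2 replicate 1. From day 3 to day 4 the limma fit called 0 genes. The lowest adjusted p was 0.963, and 522 genes had an unadjusted p under 0.05. Leaving out day 3 replicate 1 gave 2 and day 4 replicate 2 gave 1. The median change of the 63 risers was 0.32 from day 1 to 2, 0.63 from day 2 to 3 and 0.13 from day 3 to 4, and that of the 92 fallers -0.36, -0.56 and -0.11. These steps share arrays with the middle against early comparison, so they describe where its change lay.

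The same days under the other inducers used 8 arrays each, none shared with ANX. LIF culture had 117 calls from early to middle (1.03%, 67 higher at 0.588% and 50 lower at 0.439%) and NGAL culture 566 (4.97%, 312 higher at 2.74% and 254 lower at 2.23%). Of the 63 genes that rose under ANX, 21 also rose under LIF (33.3%, or 31.3% of the LIF rises). Of the 92 that fell 27 also fell under LIF (29.3%, or 54.0% of the LIF falls). With NGAL the shared calls were 24 (38.1% of the ANX rises, 7.69% of the NGAL rises) and 36 (39.1% and 14.2%). Over the 11388 genes, which are not independent and were normalised together, the changes under ANX and LIF had a correlation of 0.716, and those under ANX and NGAL 0.383. Cholesterol synthesis had 9 falls of 21 under LIF and 9 under NGAL, with medians of -0.63 and -0.57, and the 3 embryonic globins fell under all 3 inducers. Nephron induction genes had a median of 0.34 under LIF, with 0 calls, and 0.41 under NGAL, with 3 rises and 1 fall.

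The test of the difference between inducers set ANX apart from LIF for 0 of 11388 genes (limma, lowest adjusted p 0.0582, 166 at an unadjusted p under 0.05), with 1 call when the replicate number was a block. The largest named differences from LIF, none past the threshold, were those of Mmp3, 2.60 under ANX and 0.49 under LIF (difference 2.11, SE 0.46, adjusted p = 0.434), and Sox17, -1.74 and 0.08 (difference -1.82, SE 0.38, adjusted p = 0.353). Against NGAL 8 genes differed (0.0702%), 2 higher under ANX (0.0176%) and 6 lower (0.0527%), or 15 with replicate number as a block.

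The 2 genes with the larger rise under ANX were Mmp12 and Vamp1, neither of which was called in the change under NGAL itself. Mmp12 read 36.8 to 50.8 on the 4 middle NGAL arrays, against 120 to 185 under ANX, and its difference of change was 1.49 (SE 0.26, adjusted p = 0.0178). It passed the filter through ANX and LIF groups alone, so its NGAL values lay within background. With low means raised to the measured level its difference was 1.34. Vamp1, a synaptobrevin of vesicle fusion, read 103 and 96.8 on day 1, 153 and 130 on day 2, 257 and 265 on day 3 and 312 and 378 on day 4 under ANX. Its middle NGAL arrays read 87.3 to 98.7, and the difference of change was 1.32 (SE 0.26, adjusted p = 0.0469), although the mean of its probe sets gave an ANX change of 0.61 in place of 1.34.

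The 6 genes lower under ANX than NGAL were mostly genes of striated muscle, and in each the NGAL arrays rose while the ANX means stayed below the measured level. They passed the filter through other groups, Klhl41, Col19a1 and Cox6a2 through NGAL groups alone, so their differences are taken against ANX values within background. Klhl41, a Kelch protein of the sarcomere, read 197 and 233 on NGAL day 3 and 237 and 606 on day 4. Under ANX it read 23.5 and 17.7 on day 1, 21 and 21.8 on day 2, 19.6 and 56.7 on day 3 and 19.5 and 28.0 on day 4, so that only day 3 replicate 2 exceeded 55.2, and the difference was -3.34 (SE 0.64, adjusted p = 0.0405), or -2.37 with means below 55.2 raised to it. Srl, the calcium-binding sarcalumenin, differed by -2.87 (SE 0.53, adjusted p = 0.0364), its ANX array of day 3 replicate 2 reading 71.6 and the other middle arrays 25.0 to 30.7. Synpo2l differed by -2.27 (SE 0.36, adjusted p = 0.00918), the giant sarcomere protein gene Ttn by -1.83 (SE 0.28, adjusted p = 0.00915), the collagen gene Col19a1 by -1.87 (SE 0.33, adjusted p = 0.0178) and Cox6a2, the muscle form of a cytochrome oxidase subunit, by -1.39 (SE 0.27, adjusted p = 0.0469). With low means raised to the measured level the differences were -2.32 for Srl, -1.82 for Synpo2l, -1.60 for Ttn, -1.17 for Col19a1 and -0.59 for Cox6a2. Of 24 measured muscle genes 23 rose under NGAL and 0 under ANX, and the difference was called for 1, with a median difference of -1.81.

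Without ANX day 3 replicate 2 the number of genes that differed from NGAL was 304, 49 higher (0.43%) and 255 lower (2.24%). The median difference of the muscle list was -2.02 (-1.81 with that array), and that of collagens and proteoglycans -1.22 (-0.85). For stroma genes it was -0.90 (-0.65), and for TGF-beta and contractile genes -0.92 (-0.68). No other list was examined in this way. The array was left out after it was seen to be high in the muscle, collagen and stroma lists. Lower ANX changes in these lists therefore follow from its removal, and ANX day 3 then rested on 1 array. Cxcl14 and Hbe1 were then called too, at differences of 1.36 (SE 0.32, adjusted p = 0.0316) and -2.52 (SE 0.47, adjusted p = 0.0120). Leaving out other single arrays lowered the number of 8 in most fits. It was 0 without NGAL day 4 replicate 2, 4 without NGAL day 1 replicate 1 or day 3 replicate 1, 3 without NGAL day 1 replicate 2 and 2 without either NGAL day 2 array, and 32 without NGAL day 4 replicate 1. It was 2 without ANX day 1 replicate 1, day 2 replicate 1 or day 4 replicate 1, and 3 without ANX day 1 replicate 2, day 2 replicate 2, day 3 replicate 1 or day 4 replicate 2.

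**Figure D5:**
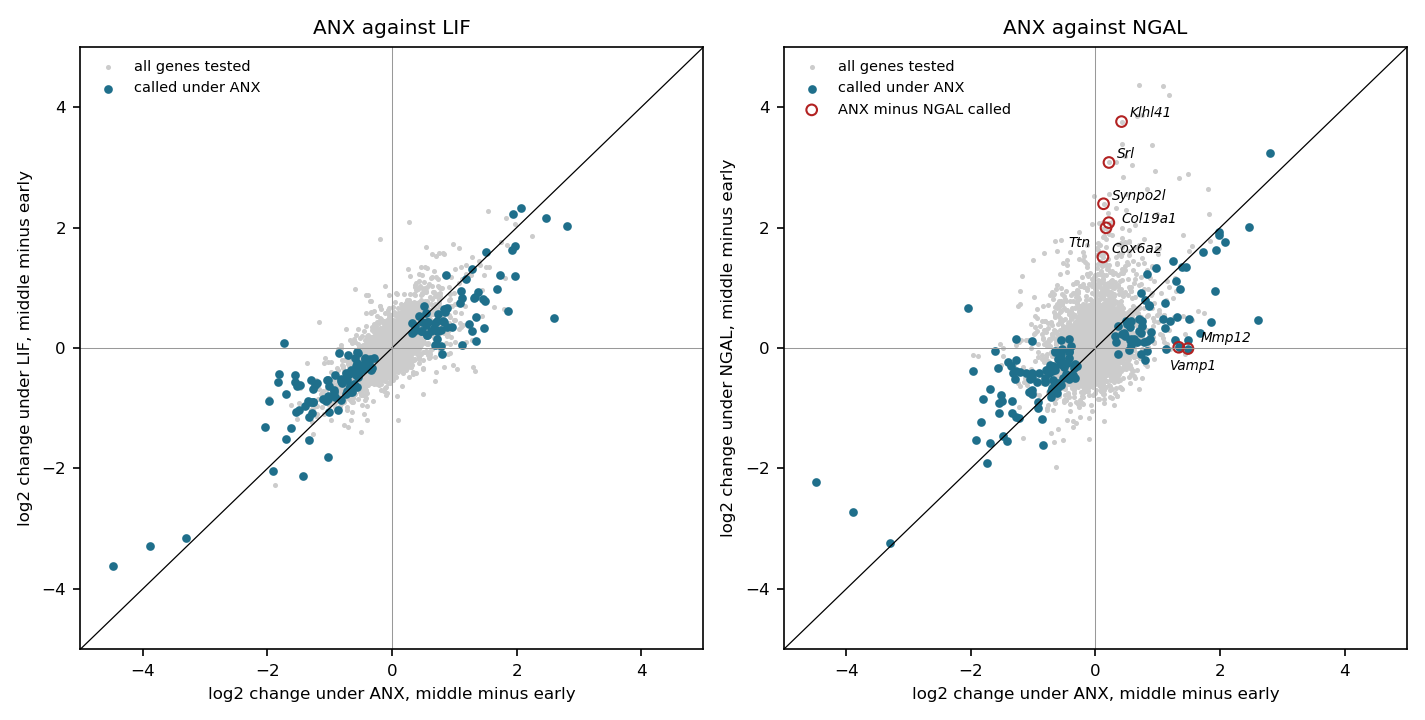
Log2 change from early to middle culture under ANX (x axes) against that under LIF (left, y axis) and NGAL (right, y axis) for 11388 genes (grey) with the 155 called under ANX in blue; the diagonal marks equal change. Ringed genes are the 8 whose change differed between ANX and NGAL, from Klhl41 at a difference of -3.34 to Mmp12 at 1.49. The 6 that were lower under ANX had ANX means below the measured level, and Mmp12 had NGAL means below it.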

How the data were processed

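Expression was measured on 42 arrays in 21 groups of 2. The deposited intensity values were made by the authors with robust multichip analysis, per the submitters' processing notes and the series design; its version was not given in the sources used here. They ran from 7.6 to 17972, so they are linear, and were put on the log2 scale. Platform annotation joined to RefSeq gene names gave 1 gene to 20832 of 31099 probe sets, and the probe set with the highest mean over all arrays stood for each of 14218 genes; 11388 passed the filter (40th percentile, log2 5.79). Comparisons used limma 3.58.1 in R 4.3.3, with 1 mean for each of the 21 groups (42 arrays, 21 residual degrees of freedom), empirical Bayes variances with a trend, and Benjamini-Hochberg adjustment over all tested genes; the script was tested on simulated data. The difference between inducers is the ANX change minus that of LIF or NGAL. With 2 arrays a group, their number limits the precision.

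Named genes were the 15 largest rises and 15 largest falls among called genes whose arrays did not overlap, up to 4 called members with the smallest adjusted p per list, up to 5 per direction of each difference test, and 11 anchor genes (Pax8, Wnt4, Lhx1, Jag1, Cdh1, Epcam, Wt1, Eya1, Lcn2 and Fst; 1 is not reported here). Other members are given as examples chosen after their values were seen. The members and the 29 lists were chosen with earlier results of these data known; of 872 listed genes 773 had a probe set. The replicate number was not a block. Same-numbered ANX arrays deviated together, the differences between replicates correlating at 0.12 to 0.64 over the 6 pairs of days, but there are only 2 numbers, so the block is an alternative. Promoter windows come from RefSeq, build GRCr8.

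Alternatives were each array left out, days as replicates, a 2-fold minimum, the dap ratio as a covariate, a replicate block, a fit of only the arrays compared, array weights, a variance model without trend, probe sets averaged per gene, a second quantile normalization, low means raised to the filter level, and a filter at the 60th percentile (log2 7.10) or none. Chosen after seeing the data were a fit of the ANX arrays with a replicate block and one without both arrays of high dap ratio.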

Additional observations from a re-analysis of the deposited data

Results flagged for a closer look

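In 8 of 128 sets of 4 ANX arrays (64 genes, early or middle), 1 array lay far from the other 3 by Dixon's test at 95%; chance flags about 1 set in 20. On day 4 replicate 2 these were Clu at 871 against 524 to 547 on the other middle arrays, Sema5a at 333 against 177 to 194, Hey1 at 647 against 305 to 344, and Plvap, low at 120 against 171 to 177. Day 4 replicate 1 was low for Lcn2, 204 against 287 to 304, and day 3 replicate 2 was low for Eya1, 1510 against 3180 to 3360. Among early arrays, day 2 replicate 2 was high for Mmp12, 67.6 against 44.1 to 46.9, and day 1 replicate 1 was high for Pax8, 830 against 423 to 429.

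The change from early to middle culture differed between ANX and NGAL, by limma's test of the difference itself, for 8 genes. It was more positive under ANX for Mmp12 (1.49) and Vamp1 (1.32), and more negative for Klhl41 (-3.34), Srl (-2.87), Synpo2l (-2.27), Col19a1 (-1.87), Ttn (-1.83) and Cox6a2 (-1.39). For these 6 the ANX means lay below the measured level, and Klhl41, Col19a1 and Cox6a2 passed the filter through NGAL groups alone. With low means raised to that level the differences ran from -2.37 for Klhl41 to -0.59 for Cox6a2. Mmp12 passed the filter through ANX and LIF groups alone, and its difference was 1.34 with low means raised.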

How the results depend on the processing

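The number of calls from early to middle ANX culture (155) was within 1.5 times of that under 8 of 13 other settings and moved with only the arrays compared (16), a 2-fold minimum (68), days as replicates (13), the ANX arrays alone with a replicate block (24) and both arrays of high dap ratio left out (35). Single arrays left out gave 63 to 492. The 155 were all among the 197 of the replicate block. The step from day 1 to day 2 (3) gave 1 with the stricter filter, 13 with array weights, 0 with only the arrays compared and 5 with the dap covariate, and 0 to 3 with an array left out. That from day 2 to day 3 (4) gave 0 with array weights and 0 with only the arrays compared, and 0 to 26 with an array left out, and the last step (0) gave 0 to 2. The difference from LIF (0) gave 2 with no filter, and 1 each with quantile normalization, no variance trend, the replicate block and the dap covariate, and 0 to 3 with an array left out; that from NGAL (8) gave 15 with the replicate block and 0 to 304 with an array left out. With the block on all arrays no other count moved by over 1.5 times.

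Of 52 named genes that were called, 8 kept the call in all 19 settings (Srgn, Cxcl14, Ctsc, Hbe1, Hbz, Hbg1, Mmp12 and Vamp1) and 44 lost it in at least 1. Of the 52, 0 changed sign. The setting with low means raised to the filter level kept the p-values of the main fit, so no call could be lost in it. Uncalled values that changed sign were those of Wt1 (0.026 without day 2 replicate 1 and 0.018 without day 3 replicate 2, range -0.34 to 0.026), Eya1 (-0.035 without day 3 replicate 1, range -0.035 to 0.51) and Srl (-0.13 without day 3 replicate 2, range -0.13 to 0.57). Why these values moved was not tested, beyond the fewer arrays or the added minimum.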

Other observations

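Later days of ANX culture, outside the comparison, carried the epithelial genes that were low through day 4. Cdh1 read 25.1 and 128 on day 5 and 371 and 386 on day 7, and Epcam 168 and 295 on day 5 and 757 and 1300 on day 7. Clu read 1540 and 6590 on day 5 and 2810 and 2880 on day 7, above all 4 middle arrays, and Jag1 612 and 625, then 1230 and 890. Mmp3 read 167 and 44.5 on day 5 and 45.0 and 57.1 on day 7, below the middle arrays. Lcn2 was highest on day 5, at 655 and 594, and read 157 and 230 on day 7. These later values were not tested.

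Rps4y2, a ribosomal protein gene of the Y chromosome, was called with a change of -0.92 (SE 0.16, adjusted p = 0.00341) and no overlap of arrays; it was singled out after its value was seen, and the labels give no sex of the embryos.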
